A study of Mus musculus with 9 samples.

Results

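The chemokines and their receptors of the CC and CXC families were examined in mouse aorta of BMAL-/- and BMAL+/+ animals. The members are the genes whose symbol begins with Ccl, Cxcl, Ccr or Cxcr followed by a digit, among probe sets that the platform annotation pairs with a single gene. The rule found 46 genes of the 18193 genes that the array measured by such probe sets, and 70 of its 45037 probe sets. They are 18 CC ligands, 13 CXC ligands, 10 CC receptors and 5 CXC receptors. Each gene is represented by its probe set with the highest mean over the 9 arrays. Other probe sets are described for the members with a mean above 5 and for Ccr2. Those of most remaining members are not described. A further 4 probe sets that match several genes of the Ccl19, Ccl21 and Ccl27 families were not used. Values are log2 expression values as deposited, and a member was called above the floor when its mean over the 9 arrays was above 5. By that measure 8 members were above the floor, all of them ligands, and 38 members were not. The members nearest to the limit were Cxcl13 at 5.71 and Ccl9 at 5.79 just inside it, and Cxcl10 at 4.57 and Cxcl16 at 4.37 just outside it.

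The study measured RNA of the aorta on Affymetrix MOE 430V2 arrays in male mice that carry or lack BMAL, the transcription factor encoded by Arntl that drives the circadian clock. BMAL-/- animals gave 4 arrays, named F02, F03, F05 and F08. BMAL+/+ animals gave 5 arrays, named F01, F04, F07, F09 and F10. All animals of both genotypes were partially backcrossed onto C57Bl/6J. They had been kept for at least 2 weeks under 12 h of light and 12 h of darkness. After at least 30 h in constant darkness they were sampled at ZT14, a time early in the active phase of a mouse on that light cycle. The labels describe the arrays as biological replicates, so the error below is the spread between animals. The title and strain of F01 place it in BMAL+/+, where it is kept here, although its source name says BMAL-/-.

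The clock genes of 2 arrays went against their labels. Npas2, which encodes a partner protein of BMAL, read 8.08, 7.90, 3.40 and 8.52 in F02, F03, F05 and F08 of BMAL-/-, against 3.37, 8.36, 3.40, 3.37 and 3.38 in F01, F04, F07, F09 and F10 of BMAL+/+. The array labelled BMAL-/- F05 thus sat with the BMAL+/+ arrays, and the array labelled BMAL+/+ F04 sat with the BMAL-/- arrays. Nr1d2, a target of BMAL, split the same way, with F05 at 11.21 and F04 at 5.81. Arntl itself also split this way and read higher in the BMAL-/- arrays other than F05, at 5.87, 6.22 and 6.05, than in the BMAL+/+ arrays other than F04, at 2.74 to 2.82; where its probe set lies relative to the deleted part is not given. The differences between genotypes below are therefore given over the 9 arrays as labelled and over the 7 arrays without F04 and F05, which hold 3 BMAL-/- and 4 BMAL+/+ arrays. No array was moved to another group. The medians of the arrays lay between 3.13 and 3.24. The 8 smooth muscle genes checked averaged 9.77 to 11.19 in BMAL-/- arrays and 10.37 to 11.54 in BMAL+/+ arrays, and genes of brown and white fat averaged 11.70 to 12.64 in BMAL-/- arrays and 11.98 to 12.73 in BMAL+/+ arrays, so genes of fat as well as of the vessel wall were read on every array.

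Chemokines are small secreted proteins that guide leukocytes along gradients held on the vessel wall and in the matrix. They act through receptors with 7 membrane-spanning helices that couple to inhibitory G proteins, and most receptors sit on leukocytes rather than on the cells that make the ligands. Inflammatory chemokines are induced on demand, while homeostatic ones such as Cxcl12 are made steadily and keep cells in their places. In the artery wall they are known from work on atherosclerosis, where monocytes enter the intima, and the number of monocytes in mouse blood is known to vary with the time of day.

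No chemokine or receptor gene passed an adjusted p of 0.05 in either comparison by limma with Benjamini-Hochberg adjustment over all probe sets. The count was 0 of 46 over the 9 arrays, where 0% of all probe sets passed and the smallest adjusted p among members was 0.37. It was 0 of 46 over the 7 arrays, where 0.00888% of all probe sets passed and the smallest adjusted p among members was 0.208. The 8 ligands above the floor all read lower on average in BMAL-/- than in BMAL+/+ in both comparisons, by a median of -0.68 on the log2 scale over the 9 arrays and -1.03 over the 7 arrays. Among all probe sets with a mean above 5 the medians were -0.02 and -0.03, and 53.6% and 52.9% had a difference below 0. All differences are BMAL-/- minus BMAL+/+. In a bulk sample, fewer cells of a type and less RNA per cell cannot be told apart.

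**Figure D1:**
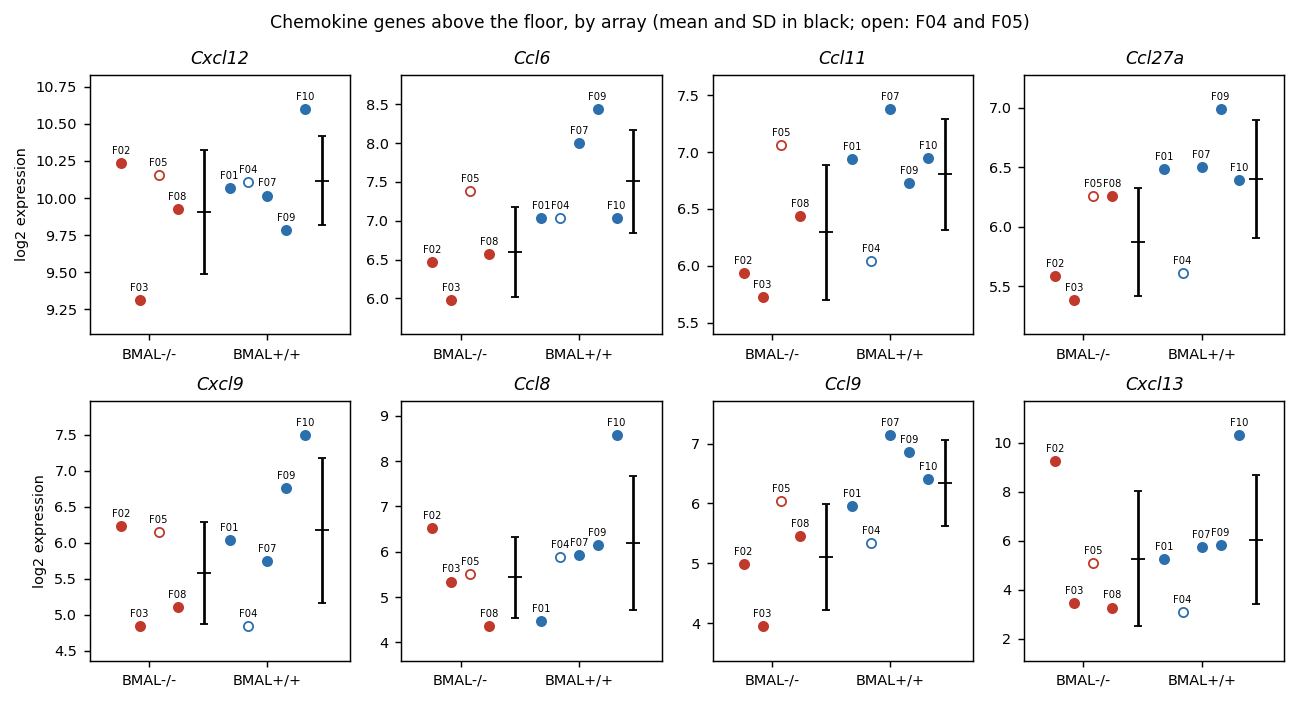
Log2 expression values of the 8 ligands above the floor in 1 panel each, with BMAL-/- left of BMAL+/+, a point per array, F04 and F05 as open points, and the group mean with its SD over the arrays as labelled in black. Ccl6, Ccl9, Ccl11 and Ccl27a separate BMAL-/- from BMAL+/+ once the open points are set aside, while Cxcl13 stands high on F02 of BMAL-/- and F10 of BMAL+/+.

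The members above the floor with the largest differences over the 9 arrays were Ccl9 and Ccl6, neighbouring genes for rodent CC chemokines that macrophages make and that signal through Ccr1. Ccl9 read 4.99, 3.94, 6.04 and 5.46 in F02, F03, F05 and F08 of BMAL-/-, against 5.95, 5.35, 7.14, 6.86 and 6.41 in F01, F04, F07, F09 and F10 of BMAL+/+. Over the 9 arrays the groups overlapped; F05 was the highest BMAL-/- array and F04 the lowest BMAL+/+ array. The means were 5.11 ± 0.89 in BMAL-/- (SD, n = 4) and 6.34 ± 0.72 in BMAL+/+ (SD, n = 5), a difference of -1.23 with a 95% interval of -2.33 to -0.13 and an adjusted p of 0.37. Over the 7 arrays the groups did not overlap, and the means were 4.80 ± 0.77 in BMAL-/- (SD, n = 3) and 6.59 ± 0.52 in BMAL+/+ (SD, n = 4). That difference was -1.79 (SE 0.43, 95% interval -2.81 to -0.77), a 3.46-fold lower reading, with an adjusted p of 0.208. A dimmer probe set of Ccl9 read 2.69 to 2.97 in BMAL-/- and 2.65 to 4.70 in BMAL+/+.

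Ccl6 followed the same order of groups. It read 6.47, 5.98, 7.38 and 6.57 in F02, F03, F05 and F08 of BMAL-/-, against 7.04, 7.04, 8.0, 8.44 and 7.04 in F01, F04, F07, F09 and F10 of BMAL+/+. F05 alone of the BMAL-/- arrays reached into the BMAL+/+ range. The deposited value was the same, 7.04151, on F01, F04 and F10 of BMAL+/+, and the cause of such equal values was not tested. Over the 9 arrays Ccl6 averaged 6.60 ± 0.58 in BMAL-/- (SD, n = 4) and 7.51 ± 0.66 in BMAL+/+ (SD, n = 5), a difference of -0.91 with an adjusted p of 0.37. Over the 7 arrays the difference was -1.29 (SE 0.40, 95% interval -2.24 to -0.34), a 2.45-fold lower reading in BMAL-/-, with an adjusted p of 0.208. Its second probe set gave -0.41 over the 9 arrays and -0.76 over the 7 arrays, where its groups did not overlap either. Ccr1, the receptor for both, was at the floor, with 3.04 to 3.32 in BMAL-/- and 3.02 to 3.07 in BMAL+/+.

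The start regions of Ccl6 and Ccl9 are shown because both of these neighbours read lower in BMAL-/- without overlap in the 7 arrays. Both windows come from RefSeq on GRCm38.p6, run 5′ to 3′ from 250 bases before to 50 bases after the annotated start on the minus strand, and lie at chr11:83593038-83593337 for Ccl6 and chr11:83578587-83578886 for Ccl9. Capitals mark runs of at least 10 bases that occur in both windows.
Ccl6: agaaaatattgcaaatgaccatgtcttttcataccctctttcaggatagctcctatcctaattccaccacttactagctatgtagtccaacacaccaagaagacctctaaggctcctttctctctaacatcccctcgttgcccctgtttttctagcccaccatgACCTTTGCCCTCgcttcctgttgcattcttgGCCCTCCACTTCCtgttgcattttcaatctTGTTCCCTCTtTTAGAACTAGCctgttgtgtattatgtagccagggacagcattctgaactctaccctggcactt
Ccl9: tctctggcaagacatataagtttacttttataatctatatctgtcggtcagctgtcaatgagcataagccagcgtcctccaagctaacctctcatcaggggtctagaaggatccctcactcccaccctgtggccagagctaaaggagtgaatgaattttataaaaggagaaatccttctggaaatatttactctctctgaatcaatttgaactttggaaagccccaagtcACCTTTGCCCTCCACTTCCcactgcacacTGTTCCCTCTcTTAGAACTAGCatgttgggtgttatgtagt
The shared runs cover 46 of the 300 bases in Ccl6 and 40 in Ccl9, and they lie in the same order in both. Their place relative to the annotated start differs. All lie before it in Ccl6, while TGTTCCCTCT and TTAGAACTAGC lie after it in Ccl9. The longest, GCCCTCCACTTCC, and the run TTAGAACTAGC were each found in 3 of the 32851 windows of the table, these 2 genes included, as was ACCTTTGCCCTC, while TGTTCCCTCT was found in 25. In Ccl9 the runs ACCTTTGCCCTC and GCCCTCCACTTCC overlap in an unbroken stretch of 19 bases, while in Ccl6 they stand apart. The letters CACGTG, the canonical E-box that BMAL and its partner CLOCK bind, were in neither window on either strand. AGGTCA, a core hexamer common to many nuclear receptors, those of the clock included, was in the Ccl6 window and not in that of Ccl9, and TATAAA was in the Ccl9 window and not in that of Ccl6.

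Ccl11, or eotaxin, draws eosinophils through Ccr3 and is made by fibroblasts and smooth muscle among other cells. It read 5.94, 5.73, 7.06 and 6.44 in F02, F03, F05 and F08 of BMAL-/-, against 6.93, 6.04, 7.38, 6.72 and 6.94 in F01, F04, F07, F09 and F10 of BMAL+/+. With all 9 arrays the groups overlapped and the difference was -0.51 (95% interval -1.27 to 0.24, adjusted p = 0.405). Without F04 and F05 Ccl11 averaged 6.04 ± 0.37 in BMAL-/- (SD, n = 3) and 7.00 ± 0.27 in BMAL+/+ (SD, n = 4), with no overlap. The difference was then -0.96 (SE 0.23, 95% interval -1.52 to -0.40, adjusted p = 0.208), or 1.95-fold lower in BMAL-/-. Ccl7 and Ccl12, the monocyte attractants whose genes flank Ccl11, stayed at the floor, with 2.39 to 2.66 in BMAL-/- and 2.36 to 3.02 in BMAL+/+ over both genes. Ccr3 was at the floor on every array too, at 2.26 to 2.39 in BMAL-/- and 2.24 to 2.29 in BMAL+/+.

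Ccl27a, a chemokine that draws T cells through Ccr10 and is best known from skin, read 5.59, 5.38, 6.26 and 6.26 in F02, F03, F05 and F08 of BMAL-/-, against 6.49, 5.61, 6.50, 6.99 and 6.39 in F01, F04, F07, F09 and F10 of BMAL+/+. F05 and F08 held the same deposited value, 6.25872. The difference was -0.52 over the 9 arrays (95% interval -1.20 to 0.15, adjusted p = 0.373), with overlap of the groups. Without F04 and F05 it was -0.85 (SE 0.26, 95% interval -1.46 to -0.24, adjusted p = 0.208), or 1.80-fold lower in BMAL-/-, and the groups did not overlap. The probe set is of a kind that can bind near-identical copies, and the mouse genome holds such copies of Ccl27, so its reading is uncertain as to which copy it measures.

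Cxcl12, the homeostatic ligand that retains stem cells and lymphocytes and guides growing vessels, overlapped between the genotypes in both comparisons. It read 10.24, 9.31, 10.16 and 9.92 in F02, F03, F05 and F08 of BMAL-/-, against 10.07, 10.11, 10.02, 9.78 and 10.60 in F01, F04, F07, F09 and F10 of BMAL+/+. F03 of BMAL-/- was the lowest array and F10 of BMAL+/+ the highest, and the others lay between 9.78 and 10.24. The difference was -0.21 over the 9 arrays (95% interval -0.73 to 0.31, adjusted p = 0.605) and -0.29 over the 7 arrays (95% interval -0.97 to 0.38, adjusted p = 0.493). A second probe set of Cxcl12 gave -0.02 over the 9 arrays and 0.12 over the 7 arrays, so the 2 probe sets did not share a direction in the 7 arrays, and another was near the floor with a mean of 2.37.

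The receptors of Cxcl12 were unlike each other. Cxcr4, its signalling receptor, was not above the floor on average. It read 6.16, 3.89, 2.99 and 3.07 in F02, F03, F05 and F08 of BMAL-/-, against 3.17, 2.99, 2.92, 4.17 and 4.82 in F01, F04, F07, F09 and F10 of BMAL+/+. F02 alone passed 5, and the differences were 0.41 over the 9 arrays (adjusted p = 0.739) and 0.60 over the 7 arrays (adjusted p = 0.623). Ackr3, the scavenging receptor that removes Cxcl12 and was once named Cxcr7, is no member by its current symbol and is given because it completes the axis. It read 11.21, 10.81, 11.14 and 11.06 in F02, F03, F05 and F08 of BMAL-/-, against 9.99, 11.33, 10.34, 9.92 and 9.86 in F01, F04, F07, F09 and F10 of BMAL+/+. F04 held the highest value of all, and every other BMAL+/+ array lay below every BMAL-/- array. The difference was 0.77 over the 9 arrays (95% interval 0.09 to 1.44, adjusted p = 0.37) and 1.0 over the 7 arrays (SE 0.17, 95% interval 0.59 to 1.41, adjusted p = 0.208).

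**Figure D2:**
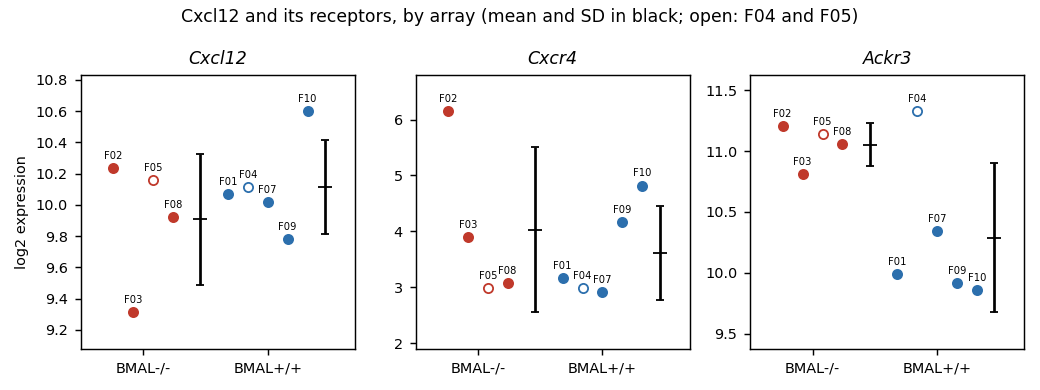
Log2 expression values of Cxcl12, Cxcr4 and Ackr3 on each array, BMAL-/- left of BMAL+/+, with F04 and F05 as open points and the group mean with its SD in black. Ackr3 lies at 10.81 to 11.21 in BMAL-/- and at 9.86 to 10.34 in BMAL+/+ apart from F04 at 11.33, while Cxcl12 overlaps between the groups.

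Cxcl9, the interferon-inducible ligand that draws activated T cells through Cxcr3, read 6.23, 4.85, 6.15 and 5.11 in F02, F03, F05 and F08 of BMAL-/-, against 6.03, 4.84, 5.75, 6.76 and 7.49 in F01, F04, F07, F09 and F10 of BMAL+/+. The groups overlapped in both comparisons, with differences of -0.59 over the 9 arrays (95% interval -1.82 to 0.64, adjusted p = 0.536) and -1.11 over the 7 arrays (95% interval -2.33 to 0.11, adjusted p = 0.214). Its other probe set gave -0.14 in each. The related ligand Cxcl10 was just under the floor limit and flat, at 4.34 to 4.56 in BMAL-/- and 4.42 to 4.95 in BMAL+/+. Cxcl11, which RefSeq annotates as a transcribed pseudogene in the reference strain, read 3.14 to 3.24 in BMAL-/- and 3.01 to 3.43 in BMAL+/+.

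Among the members grouped here as monocyte attractants Ccl8 alone was above the floor. Mouse Ccl8 is known to signal through Ccr8, which was at the floor, with 2.15 to 2.19 in BMAL-/- and 2.12 to 2.16 in BMAL+/+. Ccl8 read 6.53, 5.34, 5.51 and 4.35 in F02, F03, F05 and F08 of BMAL-/-, against 4.48, 5.88, 5.92, 6.15 and 8.57 in F01, F04, F07, F09 and F10 of BMAL+/+. Both groups spread widely and overlapped, and the differences of -0.76 over the 9 arrays (95% interval -2.50 to 0.97, adjusted p = 0.567) and -0.87 over the 7 arrays (95% interval -3.21 to 1.46, adjusted p = 0.558) were smaller than the spread between BMAL+/+ arrays, whose SD was 1.48 over the 9 arrays. Without F10 alone they were -0.17 and -0.11. Ccl2, the main attractant of inflammatory monocytes, was at the floor on all arrays, with 2.93 to 3.02 in BMAL-/- and 2.90 to 2.94 in BMAL+/+. Ccr2, its receptor on those monocytes, read 4.24, 4.06, 4.59 and 3.35 in F02, F03, F05 and F08 of BMAL-/-, against 4.11, 4.64, 4.37, 4.33 and 5.39 in F01, F04, F07, F09 and F10 of BMAL+/+. The Ccr2 differences were -0.51 over the 9 arrays (adjusted p = 0.388) and -0.67 over the 7 arrays (adjusted p = 0.251). Its dimmer probe sets gave 0.05, -0.09 and -0.004 over the 9 arrays, and 0.05, -0.21 and 0.01 over the 7 arrays.

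A further set of members read highest on F02 among BMAL-/- arrays and on F10 among BMAL+/+ arrays. Cxcl13, which draws B cells into follicles, read 9.24, 3.48, 5.11 and 3.28 in F02, F03, F05 and F08 of BMAL-/-, against 5.26, 3.11, 5.76, 5.83 and 10.30 in F01, F04, F07, F09 and F10 of BMAL+/+. F01, F05, F07 and F09 lay between 5.11 and 5.83, and F03, F04 and F08 below them. A dimmer probe set of Cxcl13 read 2.98 in F02 and 2.55 to 2.63 in the rest of BMAL-/-. In BMAL+/+ it read 7.02 in F10 and 2.58 to 3.38 in the rest, so F02 did not stand apart there. Its differences of -0.77 over the 9 arrays (95% interval -4.44 to 2.89, adjusted p = 0.791) and -1.45 over the 7 arrays (95% interval -5.86 to 2.95, adjusted p = 0.605) had intervals that reached far to both sides of 0. Cxcr5, its receptor on B cells and follicular T cells, read 4.61, 2.40, 2.37 and 2.36 in F02, F03, F05 and F08 of BMAL-/-, against 2.33, 2.38, 2.48, 2.33 and 5.26 in F01, F04, F07, F09 and F10 of BMAL+/+. The same arrays were the highest of their groups at Ccr7, the receptor by which T cells and dendritic cells enter lymph nodes, with 4.84 in F02 and 2.50 to 2.53 in the rest of BMAL-/-, against 5.55 in F10 and 2.29 to 2.52 in the rest of BMAL+/+. Ccl5, which T cells and natural killer cells make, read 7.57 in F02 and 2.47 to 2.58 in the rest of BMAL-/-, against 7.00 in F10 and 2.52 to 2.69 in the rest of BMAL+/+. Ccr6, found on B cells and some T cells, read 3.63 in F02 and 2.02 to 2.26 in the rest of BMAL-/-, against 4.84 in F10 and 1.99 to 2.01 in the rest of BMAL+/+.

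Both F02 and F10 read above the other 7 arrays at 11 of the 46 members (23.9%), against 1794 of all 45037 probe sets (3.98%). These 11 are Ccl5, Ccl8, Ccl22, Ccr6, Ccr7, Cxcl12, Cxcl13, Cxcl16, Cxcr3, Cxcr4 and Cxcr5, each by its brightest probe set. On both arrays 7 of the 46 members (15.2%) read over 1 log2 above the median of the other 7, against 1.12% of all probe sets. At the second probe set of Cxcl12, F02 read 7.39, below F04 at 7.75. At that of Cxcl13, F02 read 2.98, below F09 at 3.38. At that of Cxcl16, near the floor with a mean of 1.96, both arrays were the highest, with 1.95 in F02 and 2.18 in F10. F02 barely stood apart there, as F03 read 1.94. The arrays were picked out after their values were seen, so these counts describe them and no test was run. Marker genes of lymphocytes stood apart on the same arrays. The B cell genes averaged 7.01 in F02 of BMAL-/- and 7.82 in F10 of BMAL+/+, against 3.73 to 4.51 on the other arrays. The T cell genes averaged 5.39 in F02 and 5.23 in F10, against 3.17 to 3.34 on the others. Ms4a1, which encodes the B cell protein CD20 and was named after its values were seen, read 8.05 in F02 and 8.95 in F10. The part of these markers in the readings of Cxcl13, Ccl5 and the receptors was not tested. Without F02 and F10 the differences were -1.18 for Ccl9 and -0.99 for Ccl6 in the remaining arrays of the 9, and -1.95 and -1.55 in the remaining arrays of the 7.

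**Figure D3:**
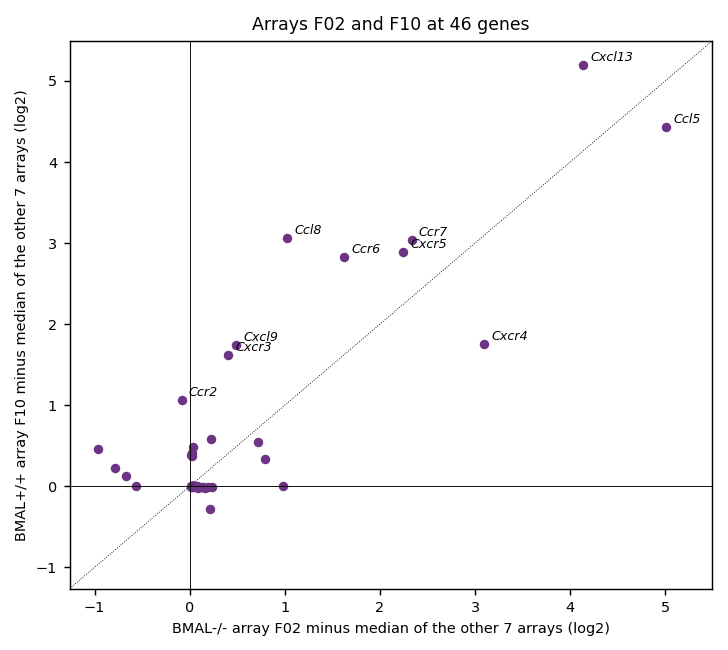
Log2 reading of F02 (BMAL-/-) and of F10 (BMAL+/+) above the median of the other 7 arrays for the 46 members, 1 point each. Cxcl13, by its brighter probe set, stands 4.13 above it in F02 and 5.20 in F10, and Ccl5 5.01 in F02 and 4.44 in F10.

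The remaining members were dim. None of the 15 receptors was above the floor, and 33 of the 46 members passed 5 on no array. The 5 neutrophil attractants of the CXC family lay between 2.34 and 3.71 on all arrays, and the 7 neutrophil marker genes averaged 2.61 to 3.17 per array with none above the floor. Ccl3 and Ccl4, which activated macrophages make, read 2.05 to 2.33 in BMAL-/- and 2.04 to 2.58 in BMAL+/+ over both genes. Ccl24, the second eotaxin, read 2.19 to 2.23 in BMAL-/- and 2.21 to 2.22 in BMAL+/+. The differences of such dim members are summarised by their counts and ranges.

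At an unadjusted p under 0.05, 9 members were counted over the 9 arrays, as were 8.67% of all probe sets. Of these, Ccl6 and Ccl9 read lower, where 1.35% of probe sets with a mean above 5 did, and 7 of the 38 dim members read higher, by 0.01 to 0.21, where 11.4% of those at or under 5 did. Without F04 and F05 16 members were counted, as were 23.7% of all probe sets, with Ccl6, Ccl9, Ccl11 and Ccl27a lower and 12 dim members higher, by 0.02 to 0.30. So 4 of the 8 ligands above the floor read lower at this threshold over the 7 arrays, against 8.86% of probe sets with a mean above 5. For the 38 dim members the 12 that read higher compare with 26.4% of probe sets at or under 5, a share close to theirs. The genotypes did not overlap at 0 members over the 9 arrays, against 0.773% of all probe sets, and at 12 members over the 7 arrays, against 17.5%. Those 12 were the same 4 ligands of the 8 above the floor, lower in BMAL-/-, against 6.31% of probe sets with a mean above 5, and 8 of the 38 dim members, higher in BMAL-/-, against 19.2% of those at or under 5. The 8 dim ones were Ccl1, Ccl17, Ccl20, Ccl28, Ccr3, Ccr9, Cxcl3 and Cxcl5. Dim probe sets leaned upward as a whole: 79.6% of those at or under 5 had a difference above 0 over the 9 arrays, as did 29 of the 38 dim members, and 81% and 30 of the 38 had one over the 7 arrays. The array medians were 3.24 on F02 and F03 of BMAL-/- and 3.13 to 3.17 on the others. Centring the arrays on a common median took the share of all probe sets above 0 from 68.7% to 40.3% over the 9 arrays. Over the 7 arrays it went from 69.9% to 39.7%. The dim members higher at an unadjusted p under 0.05 by limma then numbered 2 and 4.

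**Figure D4:**
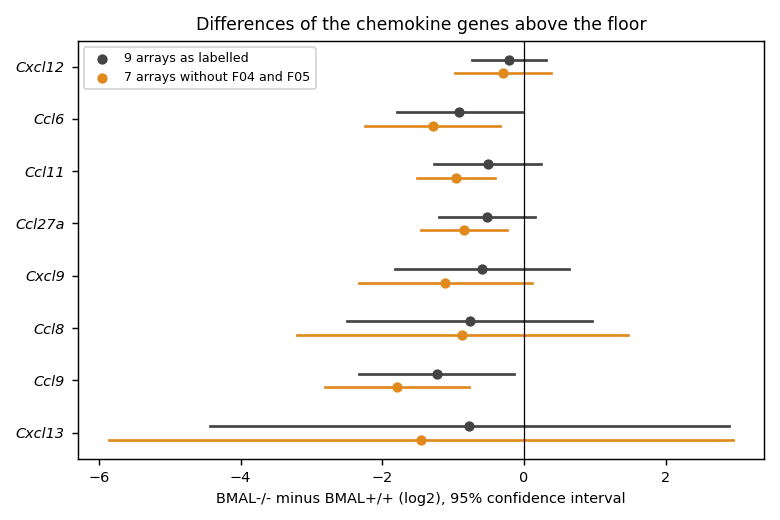
Difference in log2 value, BMAL-/- minus BMAL+/+, with its 95% interval for the 8 ligands above the floor, over the 9 arrays as labelled and over the 7 arrays without F04 and F05. All 8 lie below 0 in both, from -1.23 to -0.21 over the 9 arrays and from -1.79 to -0.29 over the 7, and the intervals of Ccl6, Ccl9, Ccl11 and Ccl27a exclude 0 over the 7 arrays.

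**Figure D5:**
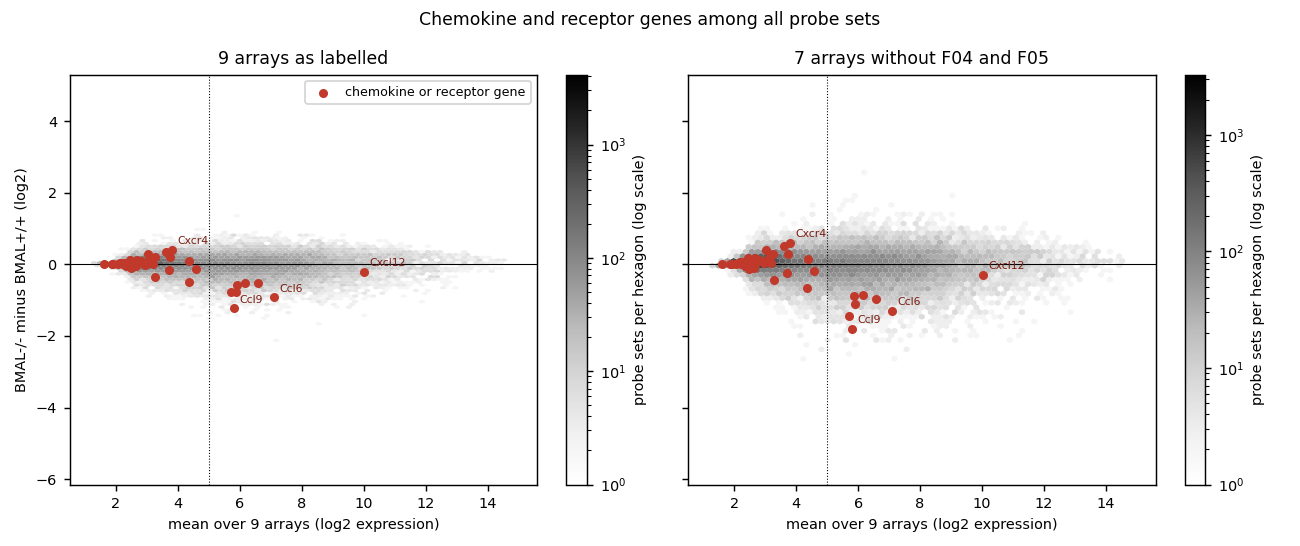
Mean log2 value over the arrays against the difference, BMAL-/- minus BMAL+/+, for the 9 arrays on the left and the 7 arrays on the right, with all 45037 probe sets as grey hexagons, darker where more probe sets fall (log scale), and the 46 members as points. Over the 7 arrays Ccl9 lies at -1.79 and Ccl6 at -1.29, and members with a mean at or under 5 lie within -0.67 to 0.60.

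Cells that could make these ligands were followed with marker lists. Of 17 macrophage genes 16 read lower on average in BMAL-/- in each comparison, with a median difference of -0.68 over the 9 arrays and -0.97 over the 7 arrays. Their mean per array was 5.21 to 6.52 in BMAL-/- and 5.73 to 7.77 in BMAL+/+. None passed an adjusted p of 0.05. At an unadjusted p under 0.05 none of the 17 read lower over the 9 arrays, where 0.75% of all probe sets did, and 9 did over the 7 arrays, where 3.7% of all probe sets did and 8.86% of those with a mean above 5. C1qc, a complement subunit made by macrophages, differed by -1.63 over the 9 arrays (adjusted p = 0.37) and -2.58 over the 7 arrays (adjusted p = 0.208). The hyaluronan receptor Lyve1 differed by -0.88 and -1.68, and the scavenger receptor Cd163 by -0.77 and -1.42, over the 9 and the 7 arrays. The 8 fibroblast genes had medians of -0.68 over the 9 arrays and -1.18 over the 7, with 6 below 0 and 2 above in each. The 8 smooth muscle genes, all below 0 in each, had medians of -0.59 and -1.0. The part of these shifts in the lower readings of Ccl6, Ccl9, Ccl11 and Ccl27a was not tested. Endothelial genes averaged 6.37 to 6.70 in BMAL-/- and 6.45 to 6.95 in BMAL+/+. Their median differences were -0.18 over the 9 arrays, with 6 of 8 below 0, and -0.19 over the 7, with 5 of 8 below 0. At an unadjusted p under 0.05 by limma, 1 of them was higher and 2 were lower over the 7 arrays.

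Genes that work with the chemokines were counted in 5 further lists at an unadjusted p under 0.05, where 7.92% of all probe sets read higher and 0.75% lower over the 9 arrays, and 20% higher and 3.7% lower over the 7 arrays. Of 13 other chemokines and atypical receptors, Ackr3 alone was counted in each comparison, as higher, and the medians were 0.04 over the 9 arrays and 0.11 over the 7. Pf4, the platelet chemokine also called Cxcl4, overlapped at 7.76 to 7.92 in BMAL-/- and 7.56 to 8.17 in BMAL+/+.

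Of 20 genes that carry or end the receptor signal, none was counted over the 9 arrays, and 1 was higher and 2 lower over the 7 arrays. The higher one was Grk3, a kinase that switches off activated receptors, which differed by 0.91 over the 9 arrays and 1.79 over the 7. The lower ones were Rgs5, which speeds the end of G protein signals and marks mural cells, at -0.75 over the 9 arrays and -1.35 over the 7, and Rac1, a small GTPase of the moving cell edge, at -0.82 and -1.27.

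A list for the control of chemokine induction held 22 measured genes, transcription factors and cytokines among them. Of these, 1 was higher and 1 lower over the 9 arrays, and 4 were higher and 3 lower over the 7 arrays. The 4 higher ones, named after their values were seen, were the inflammatory cytokines Tnf, Il1a, Il1b and Il6. All had a mean under 5 and differed by 0.05 to 0.41 over the 7 arrays. Of all probe sets with a mean at or under 5, 26.4% read higher at this threshold over the 7 arrays, and 81% had a difference above 0. The 3 lower ones were the transcription factor Stat3, at -0.68 over the 9 arrays and -0.96 over the 7, the RNA-binding protein Zfp36, at -0.66 and -1.11, and the alarmin Il33, at -0.46 and -0.97. For 16 adhesion molecules of leukocytes and the vessel wall the median was -0.15 over the 9 arrays and -0.20 over the 7 arrays. None of the 16 was higher and 1 was lower over the 9 arrays, and 1 was higher and 1 lower over the 7. The lower one over the 7 arrays was the endothelial junction protein Pecam1, at -1.39 over the 9 arrays and -1.94 over the 7; Vcam1, which holds rolling leukocytes, differed by -0.94 and -1.54 without being counted. For 14 proteases and proteoglycans that trim or anchor chemokines the medians were 0.03 over the 9 arrays and 0.06 over the 7, with none counted over the 9 arrays and 1 higher and 1 lower over the 7. None of these genes passed an adjusted p of 0.05 by limma in either comparison.

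The start windows of RefSeq were searched for 4 letter strings on both strands in the 33 member genes that have a window. CACGTG was in the window of Cxcl3 alone, against 7.15% of all 32851 windows. AGGTCA was in 12 of the 33, among them Ccl6, Ccl27a, Cxcl9 and Cxcl13, against 16.3% of all windows. TTATGTAA, the D-box of the clock's PAR factors, was in 1 of the 33, that of Ccr6, against 0.938%. TATAAA was in 10 of the 33, Ccl8, Ccl9, Cxcl9 and Cxcl13 included, against 13.6%. A match is a description of these letters in a window of 300 bases and not a binding site.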

How the data were processed

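RNA of 9 aortas was measured on Affymetrix MOE 430V2 arrays, 4 of BMAL-/- and 5 of BMAL+/+. The deposited table holds log2 values, the scale being judged from the values, and lists 45101 probe sets. GCRMA and MAS5 appear in the submitters' processing notes, with no role or version, so the origin of the low values is unknown here. The 64 control probe sets were removed and no other filter was set. Of the 45037 left, 34945 have a single gene in the platform annotation, 932 several and 9160 none listed. The symbols of all 70 member probe sets equal those of RefSeq. No column was left unmapped (0).

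Groups were compared with limma 3.58.1 in R 4.3.3 (lmFit, and eBayes with a mean-variance trend; prior degrees of freedom 1.76), with Benjamini-Hochberg adjustment over all 45037 probe sets and a threshold of 0.05, once over 9 arrays and once over 7 arrays. Intervals are 95%, and the number of arrays limits their precision. Data were simulated with the spread within groups of the 7 arrays, and changes were set only in probe sets above median brightness. Of probe sets changed 4-fold 86% were recovered at 9 arrays, and of those changed by a factor of 2 40%. At 7 arrays the shares were 70% and 22%. The 9 simulated arrays lack the spread of F04 and F05 in their labelled groups. Their shares are therefore no measure of recovery over the 9 arrays as labelled, nor of recovery at dim probe sets.

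The members, the lists of 180 genes (168 measured) and the tests were chosen with earlier results of these data known. Values per array are given for members with a mean above 5. Dim members were to be named for an unadjusted p under 0.05 with a difference of at least 0.5, which none met, and each list by up to 4 genes of smallest p with a mean above 5. Other dim members were named after their values were seen. List genes outside this rule, such as Ms4a1, Cd79b, Il7r and Pf4, were too. Alternatives were quantile normalization, centring, other eBayes and array weights, filters on brightness and probe type, a floor, averaging over the probe sets of each gene, a one-way ANOVA as the series' design text names, F01 in BMAL-/-, and each array left out.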

Additional observations from a re-analysis of the deposited data

Results flagged for a closer look

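Values far from the rest of their group were looked for among the 13 members with an array above 5, in both genotypes, by Dixon's test at its 95% limit. It marked 6 of 26 groups. Chance marks about 1 in 20, but these members entered by a high value on some array, so that rate is no measure for the count. All 6 were a high value on F02 of BMAL-/- or on F10 of BMAL+/+, at the T cell chemokine Ccl5 and the lymphocyte receptors Ccr7 and Cxcr5. Ccl5 read 7.57 on F02, with 2.47 to 2.58 on the other BMAL-/- arrays, and 7.00 on F10, with 2.52 to 2.69 on the other BMAL+/+ arrays. Ccr7 read 4.84 on F02, with 2.50 to 2.53 on the other BMAL-/- arrays, and 5.55 on F10, with 2.29 to 2.52 on the other BMAL+/+ arrays. Cxcr5 read 4.61 on F02, with 2.36 to 2.40 on the other BMAL-/- arrays, and 5.26 on F10, with 2.33 to 2.48 on the other BMAL+/+ arrays. The B cell gene Cd79b read 7.72 on F02 and 9.08 on F10, and the T cell gene Il7r 6.44 and 5.68. Both genes were named after their values were seen, and their part in these readings was not tested.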

How the results depend on the processing

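No paired analysis was possible because the labels give the genotypes no shared replicate numbers. The count of members past an adjusted p of 0.05 stayed at 0 over the 9 arrays under every alternative run. Over the 7 arrays it was 18 with array weights (3 lower, 15 higher) and 0 to 20 when an array was left out, with 20 (3 lower, 17 higher) without F08 of BMAL-/-; these settings also called 15448 and 16445 of all probe sets, and the cause was not tested. The 3 lower members were Ccl9, at -2.32 with weights and -2.12 without F08, Ccl11, at -1.27 and -1.16, and Ccl27a, at -0.99 and -1.11. Ackr3, at 0.86 and 0.98, was called in both too. Cxcl13 turned to 0.29 over the 9 arrays without F10 of BMAL+/+, and its range with an array left out reached down to -2.10 without F02 of BMAL-/-. Without F10 Ccl8 was -0.17 over the 9 arrays and -0.11 over the 7, and Cxcl9 -0.26 and -0.78; without F03 of BMAL-/- Cxcl12 was -0.01 and -0.04. The members above the floor other than Cxcl13 kept a difference below 0 in every alternative run, Ccl9 from -2.32 to -1.37 and Ccl6 from -1.55 to -1.02 over the 7 arrays. The 2 members above the floor at an unadjusted p under 0.05 over the 9 arrays became 0 without F02, F03, F07 or F09, by ANOVA, or without both F02 and F10, an alternative chosen after seeing the data, and 4 without F04. Over the 7 arrays the 4 such members became 2 without F03. Counts of dim members that read higher ranged from 0 to 14 over the 9 arrays, where the value as reported is 7, with 0 without F02 or F03 and 14 without F08. They ranged from 0 to 21 over the 7 arrays, where it is 12, with 0 without F02 or F03 and 21 with array weights. Signals at the floor limit what can be said of the receptors.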

Other observations

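Mast cell genes, which no comparison above describes, had a median difference of -0.45 over the 9 arrays and -0.77 over the 7 arrays, with 4 of 6 below 0 and 2 above. Cpa3, a mast cell protease, differed by -0.71 over the 9 arrays (adjusted p = 0.447) and -1.30 over the 7 (adjusted p = 0.208), and Cma1, a chymase, by -0.70 (adjusted p = 0.413) and -1.32 (adjusted p = 0.208), by limma. Kit, the receptor that mast cells need to survive, differed by 0.30 over the 9 arrays (adjusted p = 0.703) and 0.42 over the 7 (adjusted p = 0.554). Ppbp, a platelet chemokine, differed by 0.87 over the 9 arrays (adjusted p = 0.565) and 1.59 over the 7 (adjusted p = 0.286).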
